A study of Mus musculus with 60 samples.

Results

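The 6 libraries titled muscle were compared with the 24 other normal libraries of the same tissue count table, which came from liver (8), spleen (6), lung (7), brain (2) and kidney (1). Members were the normal libraries whose title names muscle, 6 of 30 normal libraries and 6 of 60 in the whole series. Each was from 1 mouse (M00237, M00238, M00245, M00246, M00248 and M00249), and the 30 libraries came from 9 mice. Every mouse, in muscle and in the reference tissues alike, belonged per the labels to the line Rosa26CD74-NRG1/Flp, in which a Flp deleter allele has excised a stop cassette so that a CD74-NRG1 fusion is made from the Rosa26 locus almost everywhere. No normal library is labelled as transgene-negative, age and sex are not used here, and no label says which muscle was taken. RNA came from frozen tissue and was read at the 3′ end of transcripts (QuantSeq), and levels are given in CPM, each count divided by its library's total and scaled alike.

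Skeletal muscle fibres are built from sarcomeres, repeating units in which myosin heads pull on actin filaments when calcium is released from the sarcoplasmic reticulum, and fast and slow fibres use different myosins, troponins and calcium pumps. Stratified epithelium is layered: its basal cells make Krt5 and Krt14, and the layers above make keratin pairs that depend on the site, such as Krt4 with Krt13 in the mouth and oesophagus, or Krt1 with Krt10 in skin. Hard keratins and their partner proteins form hair and nail, and in the mouse Krt36 and Krt84 are known from the horny filiform papillae of the tongue, an organ in which striated muscle lies directly under keratinised epithelium.

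The labelled tissue was present in all 6 libraries by its defining genes, and genes of stratified epithelium were present beside it. Myh4, the fast IIB myosin heavy chain, lay between 5364 and 10111 CPM (median 8352) in the muscle libraries, and between 4.98 and 27.4 CPM (median 8.69) in the other 24. Krt13, the mucosal type I keratin, lay between 10801 and 26194 CPM (median 15463) in muscle, against 12.3 to 47.9 CPM (median 19.7) in the other tissues. For both genes the muscle libraries were far above every other library, with no overlap.

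Total counts were 7705638 to 10033943 per muscle library and 5799763 to 9800343 in the other normal libraries, so a count of 0 allows up to 0.299 to 0.389 CPM in muscle, for counting error only. Mitochondrial transcripts took 21.1 to 34.8% of muscle counts, against 4.53 to 30.02% elsewhere. Nrg1, part of which the fusion carries, was at 26.4 to 38.5 CPM in 5 muscle libraries but at 1.30 CPM in the muscle library labelled M00246, and the other 3 normal libraries of that mouse were also low (0.675 CPM in liver, 2.34 in spleen and 5.37 in lung). By Nrg1 level these 4 libraries go against the label of the line, and the genotype of the mouse was not tested. The counts of called genes and the fold changes of 39 named genes were therefore also computed without it. Some main genes of one tissue were seen at a low level in all libraries: Scgb1a1, a secreted protein of lung airways, was at 27.4 to 53.9 CPM in muscle and at 12082 to 61264 CPM in lung, and Alb (albumin) was at 41.0 to 92.3 CPM in muscle and at 12622 to 41262 CPM in liver. For such genes this level bounds how large a fold change between tissues can be, and its source was not tested.

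The first comparison asked which genes set muscle apart. In edgeR's quasi-likelihood test of muscle against the unweighted mean of the other 5 tissues, 4701 of 21733 genes were higher (21.6%) and 4073 were lower (18.7%), with a median log2 fold change over all genes of -0.07. With library totals as the only scaling that median was -0.43, and the split turned to 3389 higher and 6350 lower. With the 24 other libraries as 1 group, 2062 were higher. In all 5 single contrasts at once, 962 genes were higher in muscle (4.43%) and 191 were lower (0.879%), which with library totals only became 760 and 457. The p-values measure the spread between these libraries, several of which share a mouse, and the kidney group is a single library whose spread is taken from the other groups.

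**Figure D1:**
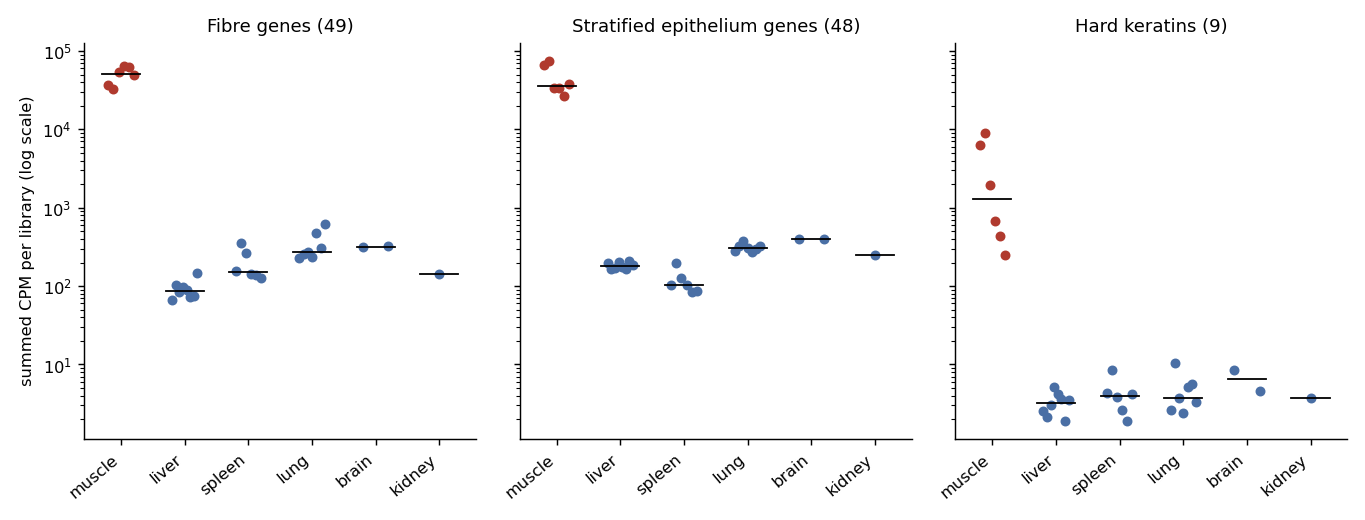
Summed CPM per library (log axis) of 49 fibre genes, 48 stratified epithelium genes and 9 hard keratins in muscle (6 libraries, red) and the other normal tissues (blue), with the median as a line. The muscle libraries lie above every other library in all 3 panels, and hard keratins run from 249.4 to 8868 CPM among them.

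The 15 genes with the highest log2 fold changes, among those higher in all 5 contrasts at 50 CPM or more on average in muscle, were nearly all genes of cornified or keratinised epithelium. Krtap9-3, Krtap4-9, Krtap1-3, Krtap4-1, Krtap4-7 and Krt33b belong to the hard keratins and the keratin-associated proteins that crosslink them. Their muscle means were carried mainly by M00237 and M00238, and none of them exceeded 0.649 CPM in M00249. Krtap4-1 was at 208.5 CPM in M00237, 665.4 in M00238, 2.39 in M00248 and 0.130 in M00249. Crnn (cornulin) and Cnfn (cornifelin) belong to the cornified envelope, as do Lce1g, Lce1d, Lce3e and Lce3f, and the other two epithelial genes were Lypd3 and Wfdc5. Only Atp2a1, the calcium pump of fast fibres, came from the fibre itself: it lay between 1462 and 4131 CPM in muscle and between 0.128 and 6.66 CPM elsewhere (log2 fold change 11.06, SE 0.77, adjusted p = 5e-13). Crnn lay between 31.4 and 217.2 CPM (median 53.7) in muscle and never above 0.303 CPM elsewhere, and Cnfn between 150.7 and 535.7 CPM, against at most 0.769 CPM. Genes of the Krtap, Krt and Lce families have near-identical copies that can share reads, so their single values are uncertain. Most of the 15 genes also had no count in the single kidney library, which weighs as 1 of the 5 tissues in the mean. Lce1d, for example, gave a log2 fold change of 13.93 against kidney and 9.09 against liver. Myh4 had counts in every other library, at 4.98 CPM or more. The order of epithelium above fibre genes in this ranking therefore depends in part on zeros in kidney.

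The 5 lowest genes, among those lower in muscle in all 5 contrasts, were made in several of the other tissues. Slc1a2, the glutamate transporter of astrocytes, was at 0.332 to 1.17 CPM in muscle against 1.90 to 1412 CPM elsewhere (log2 fold change -5.08, SE 0.31, adjusted p = 3.1e-14). F5, coagulation factor V, was at 1.99 to 3.11 CPM in muscle against 5.63 to 722.4 CPM. Vcam1, an endothelial and stromal adhesion molecule, gave a log2 fold change of -3.63 (SE 0.30, adjusted p = 2.2e-11). Fah, the last enzyme of tyrosine breakdown, gave -3.61 (SE 0.27, adjusted p = 2.7e-12), and Mpeg1, a macrophage pore protein, gave -3.54 (SE 0.41, adjusted p = 1.9e-08). In each of the 5 genes the muscle libraries lay below every other library.

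Most genes of fast fibres were high, with 10 of 13 at 10 CPM or more in all 6 muscle libraries. Of 13 fast fibre genes all 13 were higher in muscle against the mean and 11 in all 5 contrasts (median log2 fold change 9.54). All 20 sarcomere genes were higher in all 5 contrasts (median 8.89), and of 16 genes that couple excitation to calcium release all 16 were higher against the mean and 12 in all 5 (median 7.24). Acta1, skeletal alpha-actin, lay between 3084 and 6184 CPM in muscle (median 5130) and between 3.10 and 20.4 CPM elsewhere (log2 fold change 9.75, SE 0.52, adjusted p = 1.2e-15). Tnnt3, fast troponin T, lay between 2731 and 5016 CPM in muscle (median 4643) and between 3.18 and 16.4 CPM elsewhere (9.72, SE 0.40, adjusted p = 1.5e-17). Neither gene overlapped between muscle and any other tissue.

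Other fast proteins followed the same pattern. Tnnc2, fast troponin C, lay between 2157 and 3325 CPM in muscle and did not exceed 10.7 CPM elsewhere (log2 fold change 10.10, SE 0.60, adjusted p = 1.4e-14). Mylpf, the fast regulatory light chain, lay between 1151 and 2410 CPM and did not exceed 9.90 CPM elsewhere (9.49, SE 0.46, adjusted p = 1.2e-16). Myoz1, the calsarcin of fast fibres, lay between 132.8 and 271.2 CPM, against at most 1.82 CPM (10.04, SE 0.48, adjusted p = 1.1e-16). Among the heavy chains, Myh1 (IIX) was at 336.6 to 1078 CPM in muscle, while Myh2 (IIA) was at 0.598 to 23.8 CPM, and the perinatal Myh8 at 1.40 to 5.26 CPM. Reads of these neighbouring, similar genes can be divided between them by the counting.

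The log2 fold change of Myh4 itself was 10.06 (SE 0.52, adjusted p = 5.8e-16) and that of Ckm, the creatine kinase of muscle, was 10.13 (SE 0.70, adjusted p = 3.7e-13). Ckm lay between 1224 and 2554 CPM in muscle (median 2314) and between 0.563 and 9.61 CPM elsewhere. Of the 14 genes of muscle energy supply, 13 were higher in all 5 contrasts and all 14 against the mean (median 6.89). They include Pygm, muscle glycogen phosphorylase (467.3 to 980.8 CPM in muscle, at most 41.8 CPM elsewhere), Eno3, muscle enolase (663.5 to 1165 CPM, at most 21.6 CPM) and Mb, myoglobin (68.3 to 143.4 CPM, at most 2.98 CPM).

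Because fibre genes moved together, their RefSeq promoters (GRCm38.p6, 250 bases before to 50 after the start) were searched on both strands for the MEF2 consensus, the binding site of the Mef2 family of muscle activators. Promoters were listed for 32 of the 49 fibre genes. The consensus was in 6 of their 37 promoters (16.2%), in 2 of 36 promoters of epithelium genes (5.56%) and in 1047 of all 32851 promoters (3.19%). A match describes letters, not a bound site. The matches before Myh4 (chr11:67237622-67237647, plus strand), Myh1 (chr11:67199883-67199908, plus), Xirp2 (chr2:67445920-67445945, plus) and Klhl41 (chr2:69670049-69670074, plus) are shown 5′ to 3′ with the match in capitals.
Myh4: ctgtcaaaTTATTTATAGatgacaag
Myh1: aactcaaaTTATTTATAGgagattga
Xirp2: ctcagttcCTAAAAATAGgtgctagg
Klhl41: gccggtgtCTATATTTAGccggtggg
The neighbouring myosin genes Myh4 and Myh1 hold the same 10 letters, whose first base lies 182 bases before the start of Myh4 and 211 bases before that of Myh1. Mef2c, the family member on the list of myogenic factors, was at 658.1 to 959.2 CPM in muscle and 7.12 to 362.0 CPM elsewhere (log2 fold change 3.97, SE 0.24, adjusted p = 1.5e-14).

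Slow fibre genes gave another picture. Of 10 members, 5 were higher against the mean, 1 was lower, 4 had no call, and 3 were higher in all 5 contrasts (median 0.79). Over all genes tested, 21.6% were higher and 18.7% lower against the mean, and 4.43% were higher in all 5. Myh7, the slow myosin heavy chain, did not exceed 0.111 CPM in any muscle library, and Myl2, the slow regulatory light chain, had no count in all 6, which allows up to 0.299 to 0.389 CPM. Their SEs against the mean were 62.5 and 3696, so the missing call does not show equal levels. In single contrasts Myh7 was lower than lung (-5.63, adjusted p = 5.6e-07) and brain (-5.65, adjusted p = 4.5e-06). Myl2 was lower than brain (-6.05, adjusted p = 0.0019). Tnnt1 and Tnni1, slow troponins, reached 11.1 and 2.20 CPM. The 3 genes higher in all 5 contrasts were Myoz2, Csrp3 and Casq2, at 38.0 to 48.3, 43.7 to 68.4 and 40.5 to 97.7 CPM in muscle, of which heart and slow muscle are known as main sites.

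Of 10 heart genes only Actc1, cardiac alpha-actin, was higher in all 5 contrasts (172.1 to 467.7 CPM in muscle, 0.264 to 253.0 CPM elsewhere; log2 fold change 7.59, SE 0.47, adjusted p = 3.2e-14). Its ranges overlapped between muscle and lung, where other heart genes were also found: Myh6, the atrial myosin, reached 200.1 CPM in lung and at most 0.389 CPM in muscle. Nppa, the atrial natriuretic peptide, was at or below 0.220 CPM in muscle.

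Most genes of the nerve contact and of myogenic control, Mef2c apart, were below 50 CPM in muscle. Of the 9 junction genes 8 passed the filter on low counts, all 8 were higher against the mean and 5 in all 5 contrasts. Chrna1, the acetylcholine receptor subunit, was at 8.38 to 19.4 CPM in muscle and at most 4.39 CPM elsewhere, and Musk, the kinase that clusters it, at 4.58 to 11.2 CPM and at most 0.325 CPM. Of the 8 myogenic factors 7 passed the filter, all 7 were higher against the mean and 5 in all 5 contrasts. Myf6 was at 12.1 to 21.9 CPM and Myog at 7.18 to 17.6 CPM in muscle, and neither passed 0.303 CPM elsewhere.

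Stratified epithelium genes were called as often as fibre genes. All 12 basal genes were higher in muscle against the mean and 11 in all 5 contrasts (median log2 fold change 8.19), and of 21 mucosal genes all 21 and 19 were (median 9.70). Of 15 epidermis genes 14 passed the filter, 13 were higher against the mean and 11 in all 5 contrasts (median 9.10). Krt13 had a log2 fold change of 9.99 (SE 0.46, adjusted p = 5.1e-17). Its partner Krt4 lay between 4755 and 9403 CPM in muscle (median 6096) and between 4.17 and 21.0 CPM elsewhere (10.20, SE 0.48, adjusted p = 9.3e-17), again with no overlap.

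Every layer had members among them. In the basal layer, Krt5 was at 388.3 to 1066 CPM (median 593.5) in muscle, against at most 6.65 CPM elsewhere (log2 fold change 9.09, SE 0.52, adjusted p = 6.3e-15). Krt14, its partner, was at 271.9 to 1617 CPM (median 495.6), against at most 4.43 CPM (9.53, SE 0.54, adjusted p = 3.9e-15). Trp63, the transcription factor of basal cells, was at 18.9 to 33.2 CPM, and Col17a1, a hemidesmosome collagen, at 68.8 to 114.9 CPM. These basal genes had no muscle library at or below any other library.

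Above the basal layer, Krt6a, a keratin of oral and stressed epithelium, was at 995.4 to 6666 CPM (median 2293) in muscle, against at most 11.5 CPM elsewhere (log2 fold change 9.86, SE 0.58, adjusted p = 1.2e-14). Krt78 gave 9.59 (SE 0.46, adjusted p = 1.4e-16), and Krt76, a keratin of the hard palate and tongue, was at 846.0 to 3509 CPM. Rptn, repetin of the cornified envelope, was at 641.7 to 2188 CPM (median 867.2), against at most 4.38 CPM (9.78, SE 0.45, adjusted p = 5.8e-17). Lor, loricrin, was at 1702 to 4400 CPM (median 2385), against at most 13.6 CPM (9.50, SE 0.43, adjusted p = 5.1e-17), and Krtdap, a keratinocyte differentiation gene, gave 9.82 (SE 0.44, adjusted p = 4.5e-17). The epidermal keratin Krt1 stayed at 0.997 to 4.02 CPM and Krt2 at 0.221 to 1.54 CPM in muscle, while Krt10, the partner of Krt1, was at 72.8 to 1403 CPM.

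Hard keratins such as Krt36 and Krt84 were also high, and they varied far more between the muscle libraries. Krt36 was at 2842 CPM in M00237, 3491 in M00238, 1008 in M00245, 386.6 in M00246, 260.6 in M00248 and 153.9 CPM in M00249, and at 0.345 to 4.24 CPM in the other tissues. The same 6 libraries, in the same order, had 740.9, 837.6, 314.1, 115.3, 70.5 and 77.4 CPM of Krt84, which did not exceed 1.62 CPM elsewhere. Both genes were highest in M00237 and M00238, and every muscle library was above every other tissue. The log2 fold change was 9.78 for Krt36 (SE 0.77, adjusted p = 8.6e-12) and 9.86 for Krt84 (SE 0.66, adjusted p = 2.1e-13).

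The value of Krt36 moved with the mice used. With the mouse as a block, a paired fit, it was 9.07. Against liver, spleen and lung only it was 9.88 over all mice, 10.93 within mice M00235 to M00238 and 8.48 within mice M00245 to M00249, and Krt84 gave 9.56, 10.37 and 8.46 in the same fits. Krt13 gave 9.90, 10.18 and 9.70, and Myh4 gave 9.93, 9.17 and 10.24, so these moved less.

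**Figure D2:**
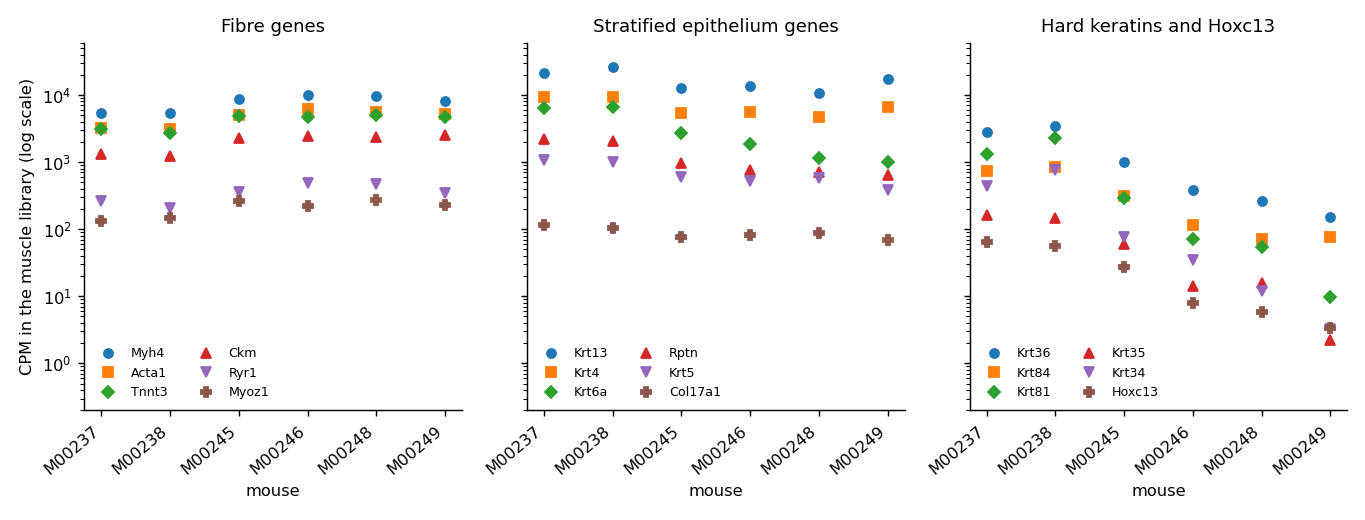
CPM (log axis) in each of the 6 muscle libraries, by mouse, for 6 fibre genes, 6 stratified epithelium genes and 5 hard keratins with Hoxc13. Fibre genes differ less between libraries than hard keratins do: Myh4 runs from 5364 to 10111 CPM, while Krt36 runs from 153.9 to 3491 CPM and Krt81 from 9.73 to 2300 CPM.

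Other hard keratins, filament builders of hair and nail, fell off more steeply across the same libraries. Krt81 was at 1313, 2300, 293.9, 70.2, 53.8 and 9.73 CPM in M00237, M00238, M00245, M00246, M00248 and M00249, and at most 3.18 CPM elsewhere (log2 fold change 9.72, SE 0.97, adjusted p = 1.3e-09). Krt34 ran between 3.24 CPM in M00249 and 765.8 CPM in M00238 (9.81, SE 0.98, adjusted p = 1.3e-09). Krt33b and Krt33a were at 204.5 and 123.4 CPM in M00238 and had no count in M00249, which allows up to 0.389 CPM, so the muscle range of these genes overlapped other tissues. Tchh, trichohyalin, which hardens hair sheath and filiform papillae, was at 57.1 to 1758 CPM (7.97, SE 0.57, adjusted p = 7.6e-13).

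Transcription factors of hard keratinised epithelium varied in nearly the same order. Hoxc13, which controls hard keratins in hair, nail and filiform papillae, was at 64.2, 56.6, 27.5, 8.03, 5.74 and 3.37 CPM in the 6 libraries in mouse order, and never above 0.812 CPM elsewhere. Foxn1, its known target in nail and hair, was at 4.06 to 25.9 CPM in muscle and at most 0.162 CPM elsewhere. Both were called higher in all 5 contrasts.

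Summed by library, the 49 fibre genes took 3.68, 3.24, 5.32, 6.52, 6.23 and 4.91% of counts in mouse order, and at most 0.0628% in any other tissue. The 48 epithelium genes took 6.65, 7.51, 3.34, 3.38, 2.66 and 3.8%, and at most 0.0399% elsewhere. M00237 and M00238 thus held more epithelium than fibre counts (ratios 1.81 and 2.32), and the other 4 libraries held less (0.427 to 0.773). The 9 hard keratins, which are not among those 48 genes, had a sum equal to 9.53 and 11.8% of the epithelium sum in M00237 and M00238, and to 5.75, 2.00, 1.65 and 0.657% of it in M00245, M00246, M00248 and M00249. In bulk tissue, fewer cells of a type and less RNA per cell cannot be told apart.

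Among the 7267 genes at 10 CPM or more on average in muscle, the highest library was a median of 1.70 times the lowest, and 102 genes (1.40%) exceeded 10 times. All 9 hard keratins were beyond 10 times, and 5 of the 6 filiform papilla genes above that level. The 9 were put together outside the planned lists. They leave out Krt82, which stayed below 1 CPM in all 6 libraries, and Krt83 and Krt87, which also exceeded 10 times. Their count is therefore no test of hard keratins as a class. The median ratio was 1.91 for sarcomere genes, 2.09 for fast fibre genes, 2.53 for basal and 3.41 for mucosal epithelium, 4.32 for epidermis and 20.9 for filiform papilla genes. Of the 102 genes, M00238 was the highest library in 68 and M00237 in 23, and M00249 was the lowest in 57. By symbol, chosen after the values were seen, 19 of the 102 were keratin-associated protein genes, which summed to 205.8 to 13912 CPM in muscle (67.6 times) and at most 13.2 CPM elsewhere.

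**Figure D3:**
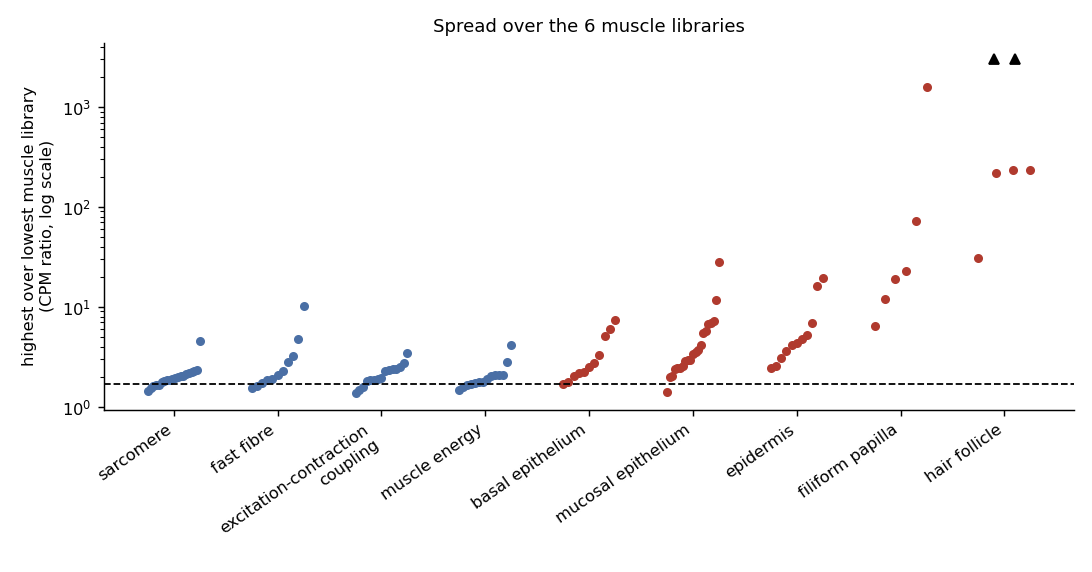
Ratio of the highest to the lowest of the 6 muscle libraries (CPM, log axis) for each list member at 10 CPM or more on average in muscle, fibre lists in blue and epithelium lists in red. The dashed line is the median of 1.70 over 7267 genes, and black triangles at the top mark members with a library at 0 and so no ratio; filiform papilla and hair follicle genes lie highest.

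The split follows mouse number. In M00237 and M00238 set against the other 4 muscle libraries, 3227 of the 7267 genes were above all 4 (44.4%) and 1289 were below all 4 (17.7%), counts that became 2144 and 2089 when mitochondrial counts were left out of the totals. Against that background, 11 of 11 basal, 18 of 21 mucosal and 11 of 11 epidermis genes at that level were above, and 16 of 20 sarcomere, 9 of 11 fast fibre and 11 of 14 energy genes were below. Genes of some other cell types in the tissue were below as well, with 4 of 4 endothelial, 6 of 6 smooth muscle and 3 of 4 Schwann cell genes. Other lists depended on the totals used: of 6 fibroblast and tendon genes 1 was below and 1 above. Of 5 blood genes 1 was below, and of 2 fat cell genes 1 was. Without mitochondrial counts 2, 3 and 2 genes of these lists were below and 0 above, against 28.7% below over all 7267. In those totals 10 basal, 17 mucosal and 11 epidermis genes were above. Below were 18 sarcomere, 9 fast fibre, 12 energy, 4 endothelial, 6 smooth muscle and 4 Schwann cell genes. The share of mitochondrial counts moved with the split: 21.1% in both M00237 and M00238, and 30.5 to 34.8% in the other 4. The labels give no date or dissection note for the 6 libraries, so the mice and any handling of their tissue cannot be told apart.

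The lists for single sites differed in how far they were filled. Over all 54838 genes, 10.8% reached 10 CPM in all 6 muscle libraries and 70.7% stayed below 1 CPM in all 6. At 10 CPM in all 6 were 19 of 21 mucosal and 11 of 12 basal epithelium genes, 11 of 15 epidermis genes and 2 of 7 filiform papilla genes, Krt36 and Krt84. None of those 7 stayed below 1 CPM in all 6 libraries. Of 15 hair follicle genes 9 stayed below 1 CPM in all 6. They were the inner root sheath keratins Krt25, Krt27, Krt28, Krt71, Krt72 and Krt73, with Krt75, Padi3 and the hard keratin Krt82. The 6 that did not were 5 other hard keratins and Tchh.

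Lists for glands and sense organs were set against the same 70.7%. Of 11 taste genes 10 stayed below 1 CPM in all 6 muscle libraries, as did 11 of 13 salivary gland genes and all 7 stomach genes. Entpd2 of the taste list was at 5.95 to 14.9 CPM in muscle and higher against the mean, as was Bpifa2 of the salivary list, at 0.0997 to 1.56 CPM. Amy1, an amylase of salivary gland and liver, was at 20.9 to 40.8 CPM in muscle, within the 0.922 to 194.3 CPM of other tissues. Krt12, the keratin of cornea, did not exceed 0.389 CPM in muscle, whereas Aldh3a1, an enzyme of cornea and also of oral and oesophageal epithelium, was at 570.7 to 1672 CPM. Set beside these lists, the fibre genes and the Krt4, Krt13, Krt36 and Krt84 group are together known from tongue, while Krt4, Krt13 and striated muscle without hard keratins are known from mouse oesophagus. No library of either organ is in the comparison, so the site of dissection was not tested.

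**Figure D4:**
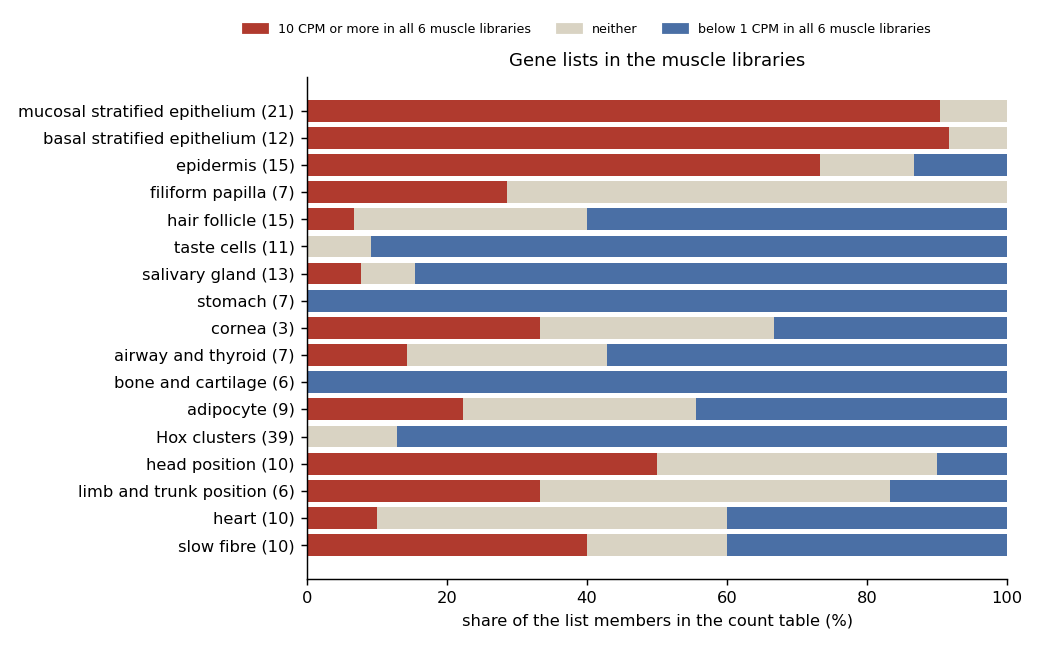
Share of each list's members in the count table (number in brackets) that reached 10 CPM in all 6 muscle libraries (red), stayed below 1 CPM in all 6 (blue) or did neither (grey). Epithelium lists are mostly red, while 10 of 11 taste, all 7 stomach and 34 of 39 Hox genes are below 1 CPM, as are 70.7% of all genes.

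Position genes are transcription factors that keep a record of where in the embryo a tissue arose. Hox cluster genes mark trunk and limbs and are largely silent in the face. Pax9 acts in jaw and mouth, and Pitx1 acts in jaw and mouth but also in hindlimb. Tbx4 and Tbx5 mark hindlimb and forelimb. Of 39 Hox genes, 34 stayed below 1 CPM in all 6 muscle libraries and 15 had no count there. Over all genes, 70.7% stayed below 1 CPM in all 6. Of the Hox genes 28 passed the filter, 4 were higher against the mean, 7 lower and 17 had no call. Over all genes tested, 21.6% were higher and 18.7% lower. Summed, Hox genes were at 10.9 to 68.9 CPM in muscle, 5.58 to 11.8 in liver and 2.43 to 3.80 in brain. The sum was 19.5 to 45.3 CPM in spleen, 150.1 to 367.3 in lung and 400.4 in kidney. A low Hox sum was thus not particular to muscle. Hoxa5 was at 0.199 to 1.56 CPM in muscle and reached 231.2 CPM elsewhere. Hoxd8 was at 1.67 to 3.50 CPM, and Hoxc13 was the only Hox gene at 10 CPM or more on average in muscle.

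Of 10 head position genes 8 were higher against the mean and 4 in all 5 contrasts (median log2 fold change 6.23). The 2 without a call were Tcf21 and Msc (0.71, SE 0.54, adjusted p = 0.33). Tcf21 went the other way in single contrasts, at -4.07 against liver, -5.70 against spleen, -8.37 against lung and -5.36 against kidney. Each of these had an adjusted p of 0.00091 or less. It had no count in brain, and its SE against the mean was 13632, so the mean contrast could not decide. Nkx2-3, Isl1, Sox2 and Hand2 were higher against the mean but not in all 5 contrasts. Nkx2-3 gave -0.58 against spleen, Hand2 -0.215 against liver and Sox2 0.02 against brain. Pitx1 was at 48.3 to 109.5 CPM in muscle and at most 0.649 CPM elsewhere. Pax9, needed for filiform papillae, was at 81.8 to 315.2 CPM, against at most 6.55 CPM (log2 fold change 7.54, SE 0.48, adjusted p = 8.1e-14), and Tbx1, of head muscle, was at 41.1 to 87.4 CPM, against at most 10.6 CPM. These 3 genes did not overlap between muscle and the other tissues, and Pitx1 and Pax9 were highest in M00237 and M00238 while Tbx1 was lowest there.

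Of 6 limb and trunk genes 3 were higher against the mean and 2 in all 5 contrasts. Tbx15 was at 116.8 to 196.7 CPM in muscle and at most 1.77 CPM elsewhere (log2 fold change 8.79, SE 0.42, adjusted p = 1e-16), and Lbx1, which marks migrating muscle precursors of limb and tongue, at 23.1 to 45.2 CPM and at most 0.487 CPM (8.61, SE 0.51, adjusted p = 1.2e-14). Tbx4 stayed at 0.110 to 1.56 CPM and Tbx5 at 0 to 0.389 CPM in muscle, while other tissues, which include lung, reached 143.2 and 91.6 CPM. No other muscle is in the comparison to set these levels against.

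**Figure D5:**
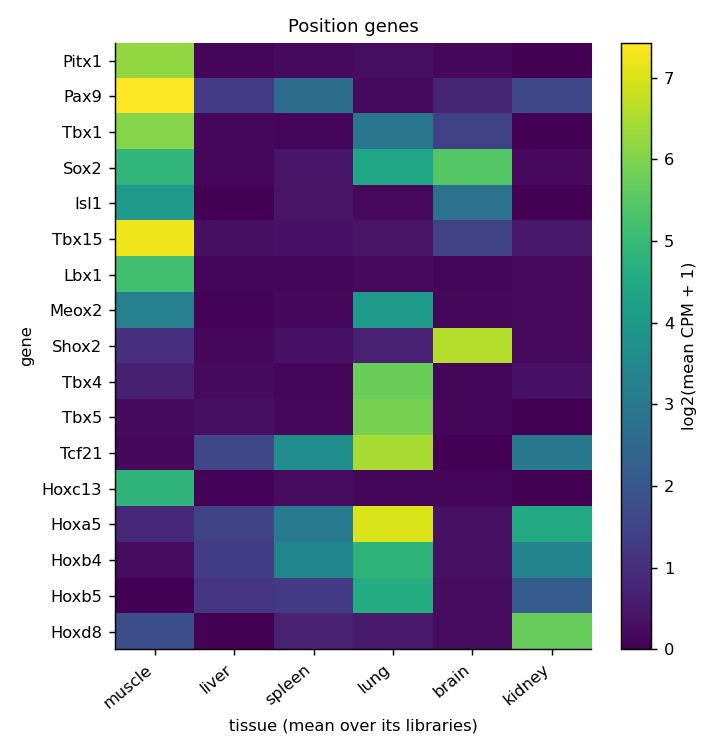
Mean level per tissue, as log2 of mean CPM plus 1, of 17 position genes, with muscle (6 libraries) in the first column and kidney (1 library) in the last. Pitx1, Pax9, Tbx1, Tbx15 and Lbx1 are bright in muscle, and Tbx4, Tbx5, Tcf21 and the Hox genes other than Hoxc13 stay near the low end there.

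Markers of other cells in the tissue gave mixed calls. Over all genes tested, 21.6% were higher and 18.7% lower, and the called shares of endothelial and fat cell genes lay near these. Of 5 endothelial genes 1, the VEGF receptor Kdr, was lower in muscle and 4 had no call. Of 9 smooth muscle genes 5 were higher and 1 was lower, with Acta2, smooth muscle actin, at 26.4 to 108.8 CPM in muscle against 0.510 to 238.7 CPM. Dcn, the decorin of connective tissue, was at 837.0 to 1221 CPM in muscle, above the 18.3 to 362.5 CPM of every other library. Of 9 fat cell genes 2 were higher in muscle and 7 had no call: Plin4, a lipid droplet protein, was at 31.6 to 105.6 CPM and Fabp4, a fatty acid carrier also of vessels, at 68.1 to 124.2 CPM, while Adipoq and Plin1 did not exceed 2.47 and 0.519 CPM. Of 11 blood genes 9 were lower in muscle and 2 had no call.

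The transgene's parts and the receptors of neuregulin were set beside these genes. Nrg1 lay between 1.30 and 38.5 CPM in muscle (median 28.4) and between 0.675 and 111.4 CPM elsewhere, and did not pass the test (log2 fold change 0.27, SE 0.57, adjusted p = 0.8). Cd74, the invariant chain of antigen-presenting cells, was at 16.3 to 29.2 CPM in muscle against 5.95 to 1435 CPM, a log2 fold change of -1.60 (SE 0.34, adjusted p = 0.00026). Reads of the fusion and of the mouse genes cannot be told apart in these counts.

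Erbb2, the shared partner of neuregulin receptors, was higher in muscle (9.84 to 17.0 CPM in muscle, 0 to 15.6 CPM elsewhere; log2 fold change 2.85, SE 0.36, adjusted p = 1.2e-07). Erbb3, which binds neuregulin, was at 14.8 to 21.8 CPM against 0.517 to 32.3 CPM (1.27, SE 0.20, adjusted p = 5.5e-06). Erbb4 was at 1.79 to 6.09 CPM in muscle (1.38, SE 0.50, adjusted p = 0.026), a call that was lost without the muscle library labelled M00246 (1.14, adjusted p = 0.086), without brain M00238 (1.31, adjusted p = 0.051) and with library totals only (1.03, adjusted p = 0.089). Egfr was at 21.1 to 35.4 CPM against 2.06 to 555.7 CPM (0.77, SE 0.20, adjusted p = 0.0025), a call lost with library totals only (0.40, adjusted p = 0.13) and within mice M00235 to M00238 (0.65, adjusted p = 0.4). With all 24 other libraries as 1 group, the calls of Erbb3, Erbb4 and Egfr were lost, and the muscle ranges of all 4 receptors overlapped those of other tissues.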

How the data were processed

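The authors deposited expected counts per gene from QuantSeq 3′ libraries read on an Illumina instrument, per the labels' protocols; aligner and build: not given in the sources used here. Of the values of 30 normal libraries 8.14% were not whole, and they were rounded. Groups come from the labels, and no column was left unmapped. Levels are CPM per library. The test was edgeR 4.0.16 (quasi-likelihood, two-sided, R 4.3.3) over 30 libraries with a mean per tissue, TMM scaling, genes kept where filterByExpr found at least 10 counts, and p-values adjusted by Benjamini and Hochberg over 21733 genes at 0.05; SEs derive from the F statistic. It had been planned for raw counts. On simulated data it recovered known changes, but those data held no differences between tissues apart from the ones planted in muscle. They do not show how the test behaves for genes absent from whole tissues. DESeq2 1.42.0 was an alternative. Tissues of 1 mouse share an animal: over 37 pairs the correlation of deviations from tissue means had a median of 0.05, against -0.01 over 289 pairs of different mice. No 2 muscle libraries agreed within sampling noise (chi-square per degree of freedom at least 11.71). Members and gene lists were chosen with earlier results of these data known. Some genes are not reported here. Named were the markers, Nrg1, Cd74 and ErbB genes, the 15 highest and 5 lowest genes of the text, and list members. Counting can divide reads between similar genes: mt-Co3, a gene every cell uses, was at 0.110 to 420.3 CPM in muscle. Intervals and floors cover counting error only. Promoter sequences are RefSeq's, GRCm38.p6.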

Additional observations from a re-analysis of the deposited data

Results flagged for a closer look

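Of 127 levels over the 6 muscle libraries, 20 had 1 library far from the other 5, where chance gives about 1 in 20 such flags. The muscle library labelled M00246 was low in Nrg1 (1.30 CPM) and high in Erbb4 (6.09 CPM), Vcam1 (7.25 CPM), Alb (92.3 CPM) and the myogenic factor Myf6 (21.9 CPM). M00249 was high in haemoglobin genes, with 4561 CPM of Hba-a1, 6602 of Hbb-bs and 1208 of Hbb-bt, and in Alas2 of haem synthesis (47.4 CPM). It was also high in Sprr3 (931.1 CPM) and Sprr1a (326.0 CPM) of the cornified envelope, in Adipoq (2.47 CPM) and in Krt12 (0.389 CPM, at the level a count of 0 allows). M00238 was high in Krtap4-1 (665.4 CPM), Krtap9-3 (242.3), Krtap1-3 (289.4) and Krt33a (123.4 CPM). M00237 was high in Erbb3 (21.8 CPM) and Krt2 (1.54 CPM), and M00245 in Myh2 (23.8 CPM). None of these levels had its cause tested.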

How the results depend on the processing

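The counts against the mean of 5 tissues, 4701 higher and 4073 lower, were 4546 and 3951 with the mouse as a replicate block, and the counts in all 5 contrasts, 962 and 191, were 849 and 168; the block, a paired analysis within animals, changed no call of the 39 genes refitted. With library totals alone, lower counts were 6350 and 457. With all other libraries as 1 group 2062 were higher. Liver, spleen and lung only, which asks for fewer contrasts, gave 1895 and 1408 in all contrasts; within mice M00245 to M00249 these were 1882 and 1232. Within mice M00235 to M00238, with 2 muscle libraries, 2879 were higher and 1973 lower against the mean, and 379 lower in all. Leaving out 1 muscle library gave 4410 to 4531 higher, and, chosen after seeing the data, leaving out mouse M00246 gave 4390. Of 779 refits of single genes over 20 alternatives, 768 kept direction and call, 7 lost it and 4 reversed: Nrg1 (-0.11 with library totals, -0.23 against 1 group), Erbb4 (-0.02) and Egfr (-2.18), both against 1 group; the cause was not tested. Depth limits muscle levels below 0.389 CPM.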
